A study of Mus musculus with 4 samples.

Results

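This account covers 10 of the 32285 genes in Visium spatial transcriptomes of MC38 tumors: Acp5, Plbd1 and the cathepsins Ctsb, Ctsd, Ctsl, Ctss, Ctsz, Ctsk, Ctsh and Ctsc, taken as the rows of the count tables that carry these symbols. MC38 is a colon carcinoma line of C57BL/6 origin, and the study compared hosts of different genetic background in which such tumors did or did not respond to anti-PD-1. The 4 sections came from 4 subcutaneous tumors of female F1 hosts, 8 to 12 weeks old, bred from C57BL/6J and a strain of the Collaborative Cross, a panel of recombinant inbred strains: 2 tumors in CC075F1 hosts (C57BL/6J x CC075/UncJ, a responder strain in the study) and 2 in CC080F1 hosts (C57BL/6J x CC080/TauUncJ, a nonresponder strain). All 4 hosts had been given 200 µg of an isotype control antibody (2A3) when tumors measured 75 to 110 mm3, and were killed 48 h afterwards, so neither strain had received anti-PD-1 and no treatment effect was analysed here. Acp5 and Plbd1 were selected on their measured levels in these sections, since they were among the few genes called between the strains, and the cathepsins were put with them by name. The strain values of the 10 genes are therefore given as a description, with no test of the group.

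Lysosomes are acidic organelles in which hydrolases break down proteins, lipids and other polymers. Cathepsins are lysosomal proteases, made as inactive precursors and trimmed in the lysosome. Most of them, including cathepsins B, L, S, Z, K, H and C, are cysteine proteases of the papain family, whereas cathepsin D is an aspartic protease. Macrophages are rich in these enzymes, and in antigen-presenting cells cathepsin S removes the invariant chain from MHC class II. Acp5 encodes tartrate-resistant acid phosphatase, a marker of osteoclasts that activated macrophages also express, and osteoclasts secrete cathepsin K to digest collagen. Plbd1 encodes a phospholipase B domain protein of the lysosome found in myeloid cells.

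The sections held 2710 to 3276 spots under tissue and 82594649 to 146460975 UMIs (unique molecular identifiers, each marking 1 captured RNA molecule), with medians of 31139 to 41740 UMIs per spot. A spot can cover several cells of different types, and in such data fewer cells of a type and less RNA per cell cannot be told apart. Of 5 MC38 and epithelial genes, Shisal2b alone was well detected, at 123 to 267 CPM (UMIs of a gene per 1000000 UMIs of its section), while Krt8, Krt18, Krt19 and Epcam were under 0.5 CPM in each section. At least 1% of UMIs came from skin, muscle or fat genes in 39 spots of CC075F1 replicate 2, in 2 spots of CC080F1 replicate 2 and in 0 spots of the other sections. The barcodes shared by all 4 sections numbered 1666, because Visium slides draw on a common barcode list. Permeabilization was set for each tissue block, and no capture date is given, so effects of block handling and strain cannot be told apart. Values are compared mainly between sections. Where levels of different genes are set side by side, they are counts of captured UMIs, with no correction for how well each gene is captured.

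Acp5 (ENSMUSG00000001348, chromosome 9, 22126727 to 22135711, minus strand, GRCm38) measured 50.4 and 35.7 CPM in CC075F1 hosts and 14.6 and 13.3 CPM in CC080F1 hosts. The strain means were 43.0 ± 10.4 and 14.0 ± 0.939 CPM (SD, n = 2 each), a ratio of 3.08, and the groups did not overlap. Plbd1 (ENSMUSG00000030214, chromosome 6, 136612070 to 136661928, minus strand) gave 44.1 and 29.9 CPM against 11.7 and 12.9 CPM, with means of 37.0 ± 10.0 and 12.3 ± 0.808 CPM and a ratio of 3.0. In both genes CC075F1 replicate 1 was the highest section, and the CC080F1 sections lay close together. These values rested on 4159, 5226, 1369 and 1499 UMIs of Acp5 and on 3639, 4375, 1098 and 1451 UMIs of Plbd1, in CC075F1 replicates 1 and 2 and then CC080F1 replicates 1 and 2, the order used throughout.

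At least 1 Acp5 UMI was found in 68.7% of spots in CC075F1 replicate 1 (exact 95% binomial interval 66.9 to 70.4), 73.4% in CC075F1 replicate 2 (71.8 to 74.9), 33.4% in CC080F1 replicate 1 (31.6 to 35.2) and 33.1% in CC080F1 replicate 2 (31.4 to 34.7). For Plbd1 the shares were 67.3% (65.5 to 69.1), 67.0% (65.4 to 68.6), 29.6% (27.9 to 31.3) and 33.1% (31.5 to 34.8). The intervals cover counting error alone. With every spot thinned to 10000 UMIs, and shallower spots left out, the Acp5 shares fell to 35.6, 30.4, 12.6 and 12.9%, and the strains remained apart. The Plbd1 shares were 36.1, 26.2, 10.9 and 12.6% at that depth. Single spots could hold many copies, with maxima of 37, 24, 20 and 23 Acp5 UMIs.

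The cathepsins had smaller ratios between strains than Acp5 and Plbd1. Cathepsin H (Ctsh, an aminopeptidase of the papain family) measured 129 and 140 CPM in CC075F1 and 77.4 and 97.0 CPM in CC080F1, a ratio of 1.54. Cathepsin S (Ctss) measured 528 and 437 CPM against 341 and 376 CPM, a ratio of 1.35. Cathepsin C (Ctsc, the dipeptidyl peptidase that activates granule serine proteases) measured 376 and 377 CPM against 244 and 324 CPM, a ratio of 1.33. In these 3 genes the strains did not overlap, and CC080F1 replicate 1 was the lowest section in each.

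Ctsk, whose product digests collagen, was sparse, with 6.95 and 4.23 CPM in CC075F1 and 5.19 and 3.51 CPM in CC080F1 (574, 619, 486 and 396 UMIs), and the strains overlapped. Cathepsin B (Ctsb, an endopeptidase that also trims C-terminal dipeptides) measured 694 and 660 CPM against 700 and 763 CPM, slightly lower in CC075F1 on this scale. Cathepsins D, L and Z overlapped between strains. Ctsd measured 328 and 226 against 278 and 321 CPM, Ctsl 801 and 1048 against 1003 and 846 CPM, and Ctsz 467 and 434 against 378 and 439 CPM. For Ctsd and Ctsl the sections of a strain lay farther apart than the strain means. Of the 10 genes, 5 lay higher in both CC075F1 sections than in both CC080F1 sections, where 6.63% of 15572 tested genes did, and 1 lay lower, where 30.3% did, and nothing is read from these counts because the strain contrast chose the genes.

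**Figure D1:**
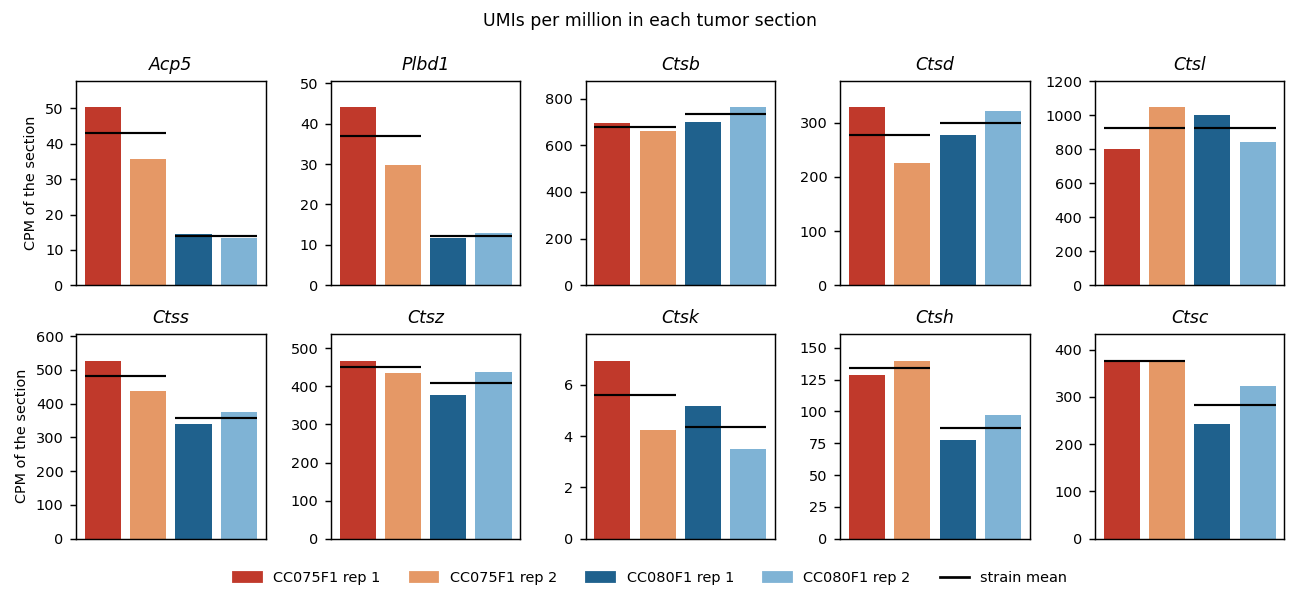
Level of each of the 10 genes in the 4 sections (bars, CPM on a linear axis from 0, 1 panel per gene with its own scale), with black lines for strain means. Acp5 and Plbd1 stand at about 3 times the CC080F1 level in CC075F1 (ratios 3.08 and 3.0), whereas the bars of Ctsl and Ctsd cross between strains.

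In the edgeR quasi-likelihood fit of UMIs summed per section, 14 of 15572 genes passed an adjusted p of 0.05 between the strains, 9 higher in CC075F1 (0.0578% of genes tested) and 5 lower (0.0321%). Acp5 and Plbd1 were among those higher, with log2 fold changes of 1.92 ± 0.176 (SE, adjusted p = 0.0263) and 1.87 ± 0.191 (adjusted p = 0.0419), which is why they were chosen. None of the 8 cathepsins passed in this edgeR fit, though Ctsh did with a replicate block (adjusted p = 0.0479) and without the filter on low counts (adjusted p = 0.0228). Their log2 fold changes ran from 0.17 (Ctsd) to 0.96 (Ctsh, adjusted p = 0.635), and with Acp5 and Plbd1 counted 4 of the 10 genes had an unadjusted p under 0.05 and 2 passed with DESeq2. The median log2 fold change of the 10 genes was 0.69, beside -0.02 over all genes tested. Scaling by library size in place of TMM (edgeR's trimmed mean scaling) moved the median of all genes to -0.31, left 0 of the 10 called (3 at an unadjusted p under 0.05), with Acp5 at 1.62 (adjusted p = 0.120) and Plbd1 at 1.59 (adjusted p = 0.153), and turned Ctsb from 0.22 to -0.11, so its direction depended on the scaling, as did those of Ctsd and Ctsl. Without CC075F1 replicate 2 Ctsb stood at -0.03 and Ctsl at -0.15, against 0.43 and 0.77 without CC075F1 replicate 1. The Plbd1 call was also lost without CC075F1 replicate 1 (adjusted p = 0.0649) or replicate 2 (adjusted p = 0.0503).

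Macrophage genes moved in part with this difference: 10 of 12 had a positive log2 fold change, and Mrc1 and Itgam a negative one. Mrc1 measured 45.4 and 23.1 CPM in CC075F1 and 72.4 and 60.4 CPM in CC080F1. The 12 macrophage genes summed to 6581 and 4998 CPM in CC075F1 and 4037 and 4272 CPM in CC080F1, with none at 0, whereas 5 of them used as general markers (Adgre1, Csf1r, Itgam, Fcgr1 and Cd14) summed to 371, 293, 302 and 305 CPM. Per UMI of those 5 markers, Acp5 stood at 0.136 and 0.122 in CC075F1 and at 0.0485 and 0.0436 in CC080F1, a ratio of 2.80 in place of 3.08, and Plbd1 kept a ratio of 2.72. The ratios of Ctsh, Ctss and Ctsc on this base were 1.43, 1.23 and 1.23. Of the 5 markers Fcgr1 alone was higher in both CC075F1 sections, at 106 and 110 CPM against 40.9 and 56.8 CPM in CC080F1. Itgam and Cd14 were lower in both, and Adgre1 and Csf1r overlapped, so the ratios depend on the markers chosen. C1qa, C1qb and C1qc, the other macrophage markers used below, summed to 2075 and 2149 CPM in CC075F1 and 1293 and 1530 CPM in CC080F1. Per UMI of these 3 genes all the ratios above would be smaller, and the excess of Ctsh, Ctss and Ctsc in CC075F1 is not kept on that base. Invariant chain and MHC class II genes differed far more, at 4562 and 3074 CPM against 624 and 833 CPM. T and NK cell genes summed to 77.0 and 70.9 CPM against 37.4 and 43.9 CPM. Of the 7 T and NK cell genes 5 had a positive log2 fold change, while Thy1 and Ncr1 had a negative one. The part of these cell types in the Acp5 and Plbd1 difference was not tested beyond these values. When only spots high in the 5 markers were summed, the log2 fold change was 1.82 for Acp5 and 1.87 for Plbd1. These spots are part of the sections that chose the 2 genes, so the values are a description and no test.

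Other lysosomal genes gave no call between strains in edgeR. Of 6 further cathepsins, 30 other hydrolases, 16 membrane and sorting proteins, 17 V-ATPase subunits (the pump that acidifies the lysosome), 6 tested cathepsin inhibitors and 5 lysosomal transcription regulators 0 passed, 0 passed with DESeq2, and 2 (1 hydrolase and 1 membrane protein) had an unadjusted p under 0.05. Their median log2 fold changes were 0.05, 0.02, -0.02, 0.18, 0.50 and -0.09, beside -0.02 over all genes. With 0.0578 and 0.0321% of all genes called, a count of 0 says nothing particular about these lists.

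Which cathepsins follow Acp5 was tested within sections, by a measure other than the strain contrast that chose Acp5 and Plbd1. The sections were the same, and the test was chosen with earlier results of these data known. In each section, spots were split by Acp5 CPM within 10 bins of spot depth, the spots above the upper tertile were called Acp5-high and those at or under the lower tertile Acp5-low, UMIs of each class were summed, and edgeR compared the classes with section as block. In CC080F1 the low class was formed by spots with 0 Acp5 UMIs (1857 and 2124 spots, against 834 and 990 high spots). Of 14188 genes tested, 3.24% were higher in Acp5-high spots and 0.691% lower. Plbd1 and the cathepsins Ctsk, Ctsh, Ctss and Ctsc were higher in them, 5 of the 9 other genes, and 0 were lower. The median log2 fold change of the 9 was 0.15, beside -0.01 over all genes, and 8 of 9 were positive.

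Plbd1 measured 51.8 against 38.8 CPM, 37.2 against 24.0 CPM, 12.9 against 11.1 CPM and 15.4 against 11.8 CPM in Acp5-high and Acp5-low spots of the 4 sections, with a log2 fold change of 0.41 ± 0.0470 and an edgeR adjusted p of 0.000126. Ctsk changed most, from 2.18 to 15.7 CPM, 2.64 to 6.56 CPM, 3.66 to 9.02 CPM and 2.82 to 4.94 CPM between low and high spots, a log2 fold change of 1.46 ± 0.178 (adjusted p = 0.000225). Its rise was seen in all 4 sections and was steepest in CC075F1 replicate 1. Ctss, by contrast, changed little in size but evenly, at 561 against 493, 486 against 393, 367 against 330 and 412 against 359 CPM (log2 fold change 0.18 ± 0.0216, adjusted p = 0.00021). Ctsh behaved alike, at 139 against 122, 156 against 127, 83.0 against 74.6 and 108 against 91.3 CPM (0.19 ± 0.0241, adjusted p = 0.000247). Ctsc was higher by 0.15 ± 0.0225 on the log2 scale (adjusted p = 0.00137).

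The remaining cathepsins did not pass in that fit. Ctsb had a log2 difference of 0.07 (adjusted p = 0.109), Ctsz of 0.07 (adjusted p = 0.0708), Ctsd of 0.06 (adjusted p = 0.250) and Ctsl of -0.02 (adjusted p = 0.713). Ctsb and Ctsz were higher in Acp5-high spots in 4 of 4 sections, and both passed with library size scaling (adjusted p = 0.0254 and 0.00947), without CC080F1 replicate 1 (0.0487 and 0.0396) and, in a setting chosen after seeing the data, when edge spots were left out (0.0343 and 0.0265). Ctsb passed without the filter as well (adjusted p = 0.0474). The calls of Plbd1, Ctsk, Ctss and Ctsh held in every alternative run for this contrast, while that of Ctsc was lost when spots were split without depth bins (adjusted p = 0.0570).

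The reverse split, by Plbd1, called 3.54% of 14193 genes higher in Plbd1-high spots and 0.493% lower. It uses the same sections and overlapping spots, so it is not a separate sample. Acp5 was higher in Plbd1-high spots, at 60.4 against 43.1 CPM, 44.2 against 30.5 CPM, 16.3 against 14.0 CPM and 15.3 against 12.4 CPM (log2 fold change 0.39 ± 0.0425, edgeR adjusted p = 2.46e-05). Ctss again rose in every section, at 562 against 499, 511 against 381, 370 against 329 and 421 against 353 CPM (0.23 ± 0.0291, adjusted p = 0.000104). Ctsh and Ctsc were higher by 0.21 (adjusted p = 0.000298) and 0.22 (adjusted p = 0.00179). Ctsl had a log2 difference of -0.06 and was lower in Plbd1-high spots of all 4 sections without passing the test (adjusted p = 0.237). Ctsb (0.03), Ctsd (-0.00) and Ctsz (0.08, adjusted p = 0.0703) did not pass either, although Ctsz did with library size scaling (adjusted p = 0.0337), without the filter (0.0420) and without CC080F1 replicate 1 (0.0117).

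Ctsk was unevenly higher in Plbd1-high spots. Its levels in Plbd1-high and Plbd1-low spots were 9.97 against 5.02 CPM and 6.46 against 2.84 CPM in CC075F1 but 5.32 against 5.12 CPM and 3.92 against 3.33 CPM in CC080F1. The joint log2 fold change was 0.59 ± 0.134 (adjusted p = 0.0153), and it did not pass with DESeq2 (adjusted p = 0.476), without CC075F1 replicate 1 (adjusted p = 0.233) or without CC075F1 replicate 2 (adjusted p = 0.0920). The difference of the 2 strains' log2 changes was 0.92 ± 0.162, larger in CC075F1 (edgeR interaction term, adjusted p = 0.0031), where 0.162% of 14193 genes were called in that direction. The split was not alike in the strains, since Plbd1 stood at 91.8 against 5.05 CPM and 64.1 against 2.12 CPM in high and low spots of CC075F1 but at 38.4 and 38.3 CPM against 0 in CC080F1, so the size of this difference is no comparison at a matched Plbd1 level. For Acp5-high spots the corresponding Ctsk difference between strains was 0.89 ± 0.254 and did not pass (adjusted p = 0.103).

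**Figure D2:**
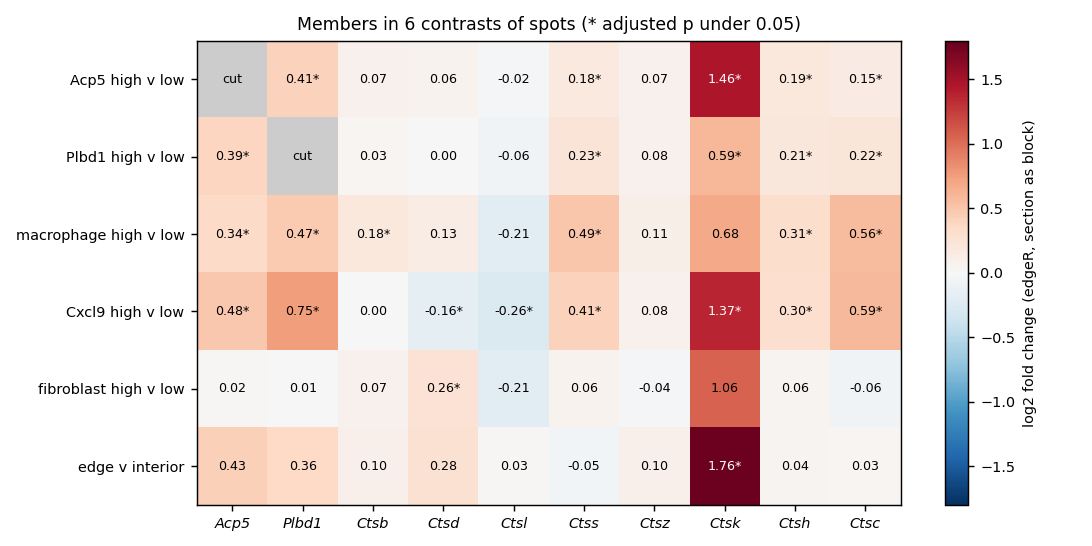
Log2 fold changes of the 10 genes (columns) in 6 contrasts of spots (rows), edgeR with section as block. Colour gives the log2 fold change, and a star marks an adjusted p under 0.05. Ctss, Ctsh and Ctsc are starred in the Acp5, Plbd1, macrophage and Cxcl9 splits, Ctsd and Ctsl are lower in Cxcl9-high spots, and Ctsk is the one starred gene at the tissue edge.

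Promoters of Ctss, Ctsc, Plbd1 and Ctsd are shown, from RefSeq on GRCm38.p6 (250 bases before to 50 after the start, on the gene's strand). They are the available promoters of the 10 genes with a match to TCACGTG or GAGGAAGT, and were not picked by the spot results. Capitals mark matches, on either strand, to TCACGTG, the core of the CLEAR element bound by TFEB, which drives lysosomal genes, or to GAGGAAGT, a core bound by PU.1 and other ETS factors. GAGGAAGT reads ACTTCCTC on the other strand and TCACGTG reads CACGTGA. Promoters of 8 of the 10 genes were in the table.
Ctss (chr3:95526536-95526835, plus strand): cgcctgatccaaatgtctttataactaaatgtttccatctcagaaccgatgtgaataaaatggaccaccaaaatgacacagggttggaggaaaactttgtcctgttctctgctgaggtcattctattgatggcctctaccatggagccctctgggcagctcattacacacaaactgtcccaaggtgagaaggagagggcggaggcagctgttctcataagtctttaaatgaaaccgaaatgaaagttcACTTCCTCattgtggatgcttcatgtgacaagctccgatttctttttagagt
Ctsc (chr7:88277835-88278134, plus strand): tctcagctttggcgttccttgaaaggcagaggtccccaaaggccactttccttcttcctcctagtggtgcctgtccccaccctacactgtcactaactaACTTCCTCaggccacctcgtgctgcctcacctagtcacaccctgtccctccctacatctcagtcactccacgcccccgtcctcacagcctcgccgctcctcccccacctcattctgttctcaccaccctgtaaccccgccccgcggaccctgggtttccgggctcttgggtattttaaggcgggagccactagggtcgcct
Plbd1 (chr6:136661844-136662143, minus strand): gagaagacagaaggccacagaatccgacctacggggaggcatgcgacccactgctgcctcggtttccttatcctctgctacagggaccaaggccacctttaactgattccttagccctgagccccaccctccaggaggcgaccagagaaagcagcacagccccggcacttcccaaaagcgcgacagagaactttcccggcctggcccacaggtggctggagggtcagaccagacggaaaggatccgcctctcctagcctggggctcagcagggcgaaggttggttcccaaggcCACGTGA
Ctsd (chr7:142387778-142388077, minus strand): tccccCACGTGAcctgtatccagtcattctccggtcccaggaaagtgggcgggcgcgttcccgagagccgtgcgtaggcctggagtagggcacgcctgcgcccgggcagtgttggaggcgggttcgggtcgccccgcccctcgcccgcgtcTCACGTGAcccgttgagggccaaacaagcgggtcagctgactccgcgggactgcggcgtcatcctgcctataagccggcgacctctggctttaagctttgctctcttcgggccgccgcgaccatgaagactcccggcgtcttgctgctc

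In this window GAGGAAGT was found in Ctss, beginning 2 bases before the start, and in Ctsc, beginning 151 bases before it, and 3.2% of 32851 RefSeq promoters of the same length hold it. TCACGTG was found in Ctsd, 245, 99 and 98 bases before the start, the last pair overlapping on opposite strands, and in Plbd1 from the 44th base of the transcript (3.77% of promoters). The E-box CACGTG, which lies within TCACGTG, was also found in Ctsl, 236 bases before the start (7.15% of promoters). The windows of Acp5, Ctsk and Ctsz held none of these letters. Plbd1, higher in Acp5-high spots, and Ctsd, which did not pass there, both held TCACGTG, while Ctsk, also higher there, held no match. These matches are descriptions of sequence, and no binding was measured.

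Over single spots, Pearson correlations of log2(CPM + 1) with Acp5 were weak for all genes, which in sparse counts is no finding by itself, and they are given as a description over 2709 to 3276 spots per section that share a library and differ in depth. The mean of r over the 4 sections was 0.135 for Ctss, 0.123 for Ctsk, 0.113 for Ctsc, 0.106 for Ctsb, 0.104 for Ctsh, 0.102 for Ctsz, 0.0922 for Plbd1, 0.0643 for Ctsd and 0.0423 for Ctsl, and the median over 6111 other genes of at least 20 CPM was 0.0320. Ctss stood at rank 7 of the 6111, with 0.151, 0.170, 0.102 and 0.115 in the 4 sections, and neighbouring genes in the order, such as Ctsb, Ctsh and Ctsz, differed by less than their spread over sections. Ctsl stood at rank 1671, with 0.116, 0.0355, -0.00553 and 0.0228. Ctsk, too sparse to be ranked, gave 0.188, 0.123, 0.113 and 0.0690.

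The 10 genes most like Acp5 by this measure were H2-Eb1 (mean r 0.164), Psap, Cd74, H2-Aa, H2-Ab1, Igfbp3, Ctss, Tgfbi, Igfbp7 and AW112010. For Plbd1 they were Cd74 (mean r 0.219), H2-Aa, H2-Ab1, H2-Eb1, Cxcl9, AW112010, Tmsb4x, Ly6a, Cd52 and Ly6e. Thus class II genes headed both lists. With Plbd1, Ctss had the highest mean r of the cathepsins (0.126, rank 18) and Ctsl the lowest (0.00169, rank 5884). The lead of Ctss depended on the measure: Ctsk exceeded it with Acp5 at log2(CPM + 10) (0.165 against 0.149), given depth (0.125 against 0.110) and with neighbours summed (0.304 against 0.291), and Ctsh with Plbd1 with neighbours summed (0.317 against 0.314). The median over the 8 cathepsins was 0.100 with Acp5 and 0.0796 with Plbd1. Among the 28 pairs of cathepsins the mean r ran from -0.0268 (Ctsl and Ctsk) to 0.334 (Ctss and Ctsc), with a median of 0.123. Ctsb was alike to Ctsz (0.301) and Ctsd (0.293) but not to Ctsl (0.0729), and Ctss and Ctsk gave 0.0460.

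**Figure D3:**
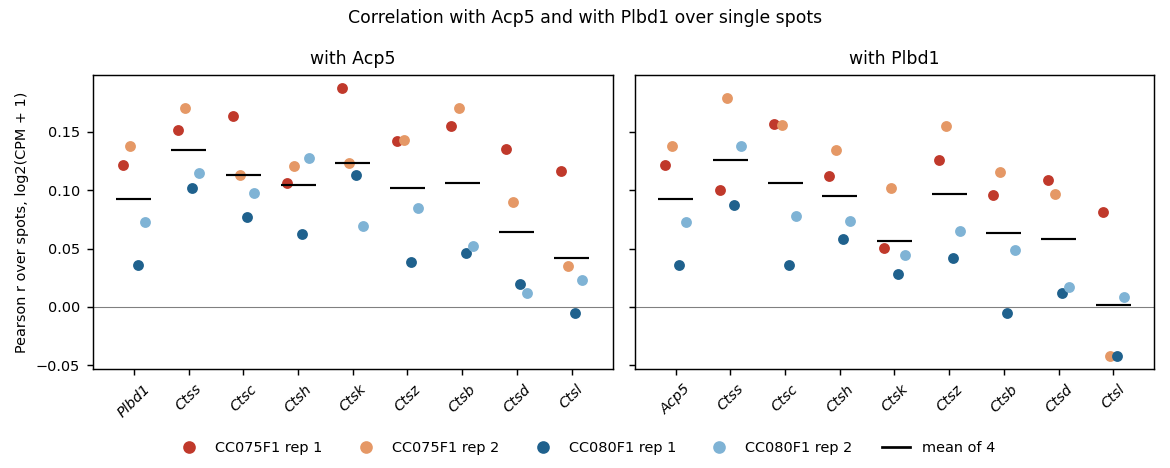
Pearson r over single spots (y axis, log2(CPM + 1)) of each gene with Acp5 (left) and with Plbd1 (right), 1 point per section and a black line for the mean of the 4. Ctss has the highest mean among the cathepsins in both panels (0.135 and 0.126), and Ctsl the lowest (0.0423 and 0.00169).

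Spots rich in macrophage markers held more of 6 of the 10 genes. Between the upper and lower tertiles of the 5 summed markers, edgeR called 2.61% of 13865 genes higher and 0.224% lower. Ctss measured 591 against 469 CPM, 582 against 312 CPM, 400 against 290 CPM and 462 against 294 CPM (log2 fold change 0.49 ± 0.0583, adjusted p = 0.0115). Ctsc measured 424 against 334, 539 against 239, 277 against 209 and 400 against 245 CPM (0.56 ± 0.0957, adjusted p = 0.0309). Both were higher in every section, and CC075F1 replicate 2 had the widest gap. Acp5 (0.34, adjusted p = 0.0276), Plbd1 (0.47, adjusted p = 0.0158), Ctsh (0.31, adjusted p = 0.0214) and Ctsb (0.18, adjusted p = 0.0456) were higher as well. Ctsd (0.13), Ctsz (0.11) and Ctsk (0.68, adjusted p = 0.205) did not pass, and Ctsl had a log2 difference of -0.21 (adjusted p = 0.108) with lower values in 4 of 4 sections. With C1qa, C1qb and C1qc as markers 8 of the 10 were called, Ctsl lower (-0.30, adjusted p = 0.0214) and Ctsz higher (0.17, adjusted p = 0.0401) among them, and Ctsl also passed without the filter (adjusted p = 0.0441). Without CC080F1 replicate 2 this contrast called 4 genes and 0 of the 10 (7 at an unadjusted p under 0.05). Log2 fold changes were of like size in that setting (Ctss 0.47, Ctsc 0.55). Without depth bins the contrast called Ctss alone of the 10.

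Cxcl9, a chemokine induced by interferon gamma, marked spots in which the cathepsins split. Of 13978 genes, 8.63% were higher in Cxcl9-high spots and 8.04% lower. Plbd1 was higher, at 55.8 against 33.4 CPM, 39.8 against 21.4 CPM, 15.4 against 9.56 CPM and 18.9 against 8.42 CPM (log2 fold change 0.75 ± 0.0674, edgeR adjusted p = 0.00126). Acp5 was higher by 0.48 (67.1 against 38.2, 42.7 against 30.03, 16.9 against 13.0 and 16.9 against 10.8 CPM, adjusted p = 0.00596). Both genes were higher in Cxcl9-high spots of all 4 sections. Ctsk (1.37, adjusted p = 0.0079), Ctsc (0.59, adjusted p = 0.00685), Ctss (0.41, adjusted p = 0.00772) and Ctsh (0.30, adjusted p = 0.00647) were also higher. Cell type genes moved in the same spots. All 7 invariant chain and class II genes and all 7 T and NK cell genes were higher. So were 5 of 5 endothelial genes and 4 of 7 dendritic cell genes. Of 12 macrophage genes 6 were higher and 1 lower, and of 8 fibroblast genes 4 were higher and 2 lower. Class II genes summed to 5638 against 3568, 4291 against 2107, 888 against 447 and 1353 against 454 CPM, and the part of these cell types in the result was not tested.

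Ctsl and Ctsd went the other way. Ctsl, a broad endopeptidase, measured 785 against 842, 961 against 1105, 959 against 1040 and 799 against 895 CPM in Cxcl9-high and Cxcl9-low spots (log2 fold change -0.26, edgeR adjusted p = 0.0165). Ctsd was lower by the fit (-0.16, adjusted p = 0.0310) but by CPM in 3 of 4 sections, since CC075F1 replicate 2 had 242 against 216 CPM, and library size scaling left it at -0.05 (adjusted p = 0.573). Ctsb (0.00) and Ctsz (0.08) did not pass. Without CC080F1 replicate 2, 3 of the 10 genes were called, Acp5, Plbd1 and Ctsk, and the others had log2 changes of like size, Ctsl -0.25 (adjusted p = 0.122), Ctsd -0.13 (0.201), Ctsc 0.59 (0.0519), Ctss 0.38 (0.0659) and Ctsh 0.27 (0.0549).

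Ctsk went with the genes of fibrillar collagen I, Col1a1 and Col1a2, in a split chosen after seeing the data, and did not pass in the planned fibroblast split. Spots were first split by 6 fibroblast markers, of which Col3a1 (334 to 1992 CPM) and Dcn (374 to 816 CPM) outweighed Col1a1 and Col1a2 (45.04 to 164 CPM each). That split called 1.92% of 13839 genes higher and 3.95% lower, and of the 10 genes it called Ctsd alone (367 against 295, 274 against 194, 296 against 267 and 378 against 280 CPM, log2 fold change 0.26, adjusted p = 0.0437), a call lost without depth bins (adjusted p = 0.0584) and without CC075F1 replicate 2, CC080F1 replicate 1 or CC080F1 replicate 2. Ctsl had a log2 difference of -0.21 (adjusted p = 0.0527), higher by CPM in CC075F1 replicate 2 and lower in the other sections, and it passed in 6 alternatives, among them DESeq2 (adjusted p = 0.00261), no filter (adjusted p = 0.0312) and no depth bins (adjusted p = 0.0481). Ctsk was uneven in it, at 3.16 against 10.1 CPM in CC075F1 replicate 1 but 10.4 against 0.609, 8.12 against 3.01 and 5.28 against 2.40 CPM in the others (log2 fold change 1.06 ± 0.749, adjusted p = 0.402).

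When the split used Col1a1 and Col1a2 alone, a setting chosen after seeing the data, Ctsk measured 14.4 against 1.78 CPM, 11.2 against 0.360 CPM, 9.81 against 2.04 CPM and 7.96 against 0.894 CPM, which gave a log2 fold change of 3.15 ± 0.293 and an edgeR adjusted p of 0.00143. All 4 sections then moved the same way, CC075F1 replicate 1 included. Acp5 was higher in the same spots by 0.45 (67.6 against 39.9, 46.3 against 29.3, 16.5 against 12.5 and 15.0 against 13.0 CPM, adjusted p = 0.0155), Plbd1 by 0.35 (adjusted p = 0.0373) and Ctsc by 0.27 (adjusted p = 0.0481). That split called 6.35% of 13952 genes higher and 3.07% lower, and the other 6 cathepsins did not pass. Its 1315 calls shared 79 with the 813 of the split by 6 markers, so the 2 splits marked largely different genes.

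Ctsk was also higher at the tissue edge. Spots at most 3 array steps from off-tissue positions (567, 665, 880 and 648 spots) were compared with the interior, and 0.788% of 14345 genes were higher at the edge and 0.0837% lower. Ctsk measured 18.4 against 5.16 CPM, 17.2 against 2.28 CPM, 7.58 against 4.22 CPM and 8.33 against 2.61 CPM at the edge and inside (log2 fold change 1.76 ± 0.255, edgeR adjusted p = 0.0342), the 1 called gene of the 10. Edge spots held 35.9, 53.0, 42.4 and 37.6% of its UMIs and 13.6, 13.0, 29.0 and 15.9% of all UMIs. The call was lost with an edge of 5 steps (adjusted p = 0.0739), without CC075F1 replicate 1 (adjusted p = 0.164) and without CC080F1 replicate 2 (adjusted p = 0.188). The log2 fold changes in these settings were 1.68 to 1.78. Of 8 fibroblast genes 3 were higher there, Col1a2 (2.21), Col1a1 (2.12) and Postn (1.96), while the sum of the 8 was lower at the edge in CC075F1 replicate 1 (1835 against 1909 CPM) and CC080F1 replicate 1 (2709 against 2897 CPM). The neutrophil genes Retnlg, S100a9 and S100a8 were higher, and skeletal muscle genes summed to 1237 CPM at the edge of CC075F1 replicate 2. The part of these cell types in the Ctsk result was not tested.

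Acp5 and Plbd1 did not pass at the edge. Acp5 measured 83.1 against 45.2 CPM and 58.8 against 32.2 CPM in CC075F1 but 15.8 against 14.1 CPM and 12.7 against 13.4 CPM in CC080F1 (a log2 change of 0.43, adjusted p = 0.166 in edgeR). The strains' log2 changes differed by 0.68 ± 0.123, which did not pass (edgeR interaction term, adjusted p = 0.125). Plbd1 measured 58.6 against 41.8, 46.1 against 27.4, 10.8 against 12.1 and 17.7 against 11.97 CPM (0.36, adjusted p = 0.176), and it passed without CC080F1 replicate 1 (0.51, adjusted p = 0.00288).

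Distance was read in bands of 1 to 3, 4 to 6, 7 to 9 and at least 10 steps. Acp5 ran 83.1, 56.96, 60.3 and 35.8 CPM and 58.8, 40.6, 35.3 and 28.9 CPM in CC075F1, and 15.8, 16.2, 13.2 and 12.8 CPM and 12.7, 15.1, 13.4 and 12.8 CPM in CC080F1. Ctsk ran 18.4, 8.88, 8.49 and 2.67 CPM, 17.2, 5.55, 2.65 and 1.24 CPM, 7.58, 5.60, 3.17 and 3.66 CPM, and 8.33, 4.77, 2.63 and 1.84 CPM. In all 4 sections Ctsk was highest in the outermost band, and the innermost Acp5 band was below the outermost in 3 of 4.

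**Figure D4:**
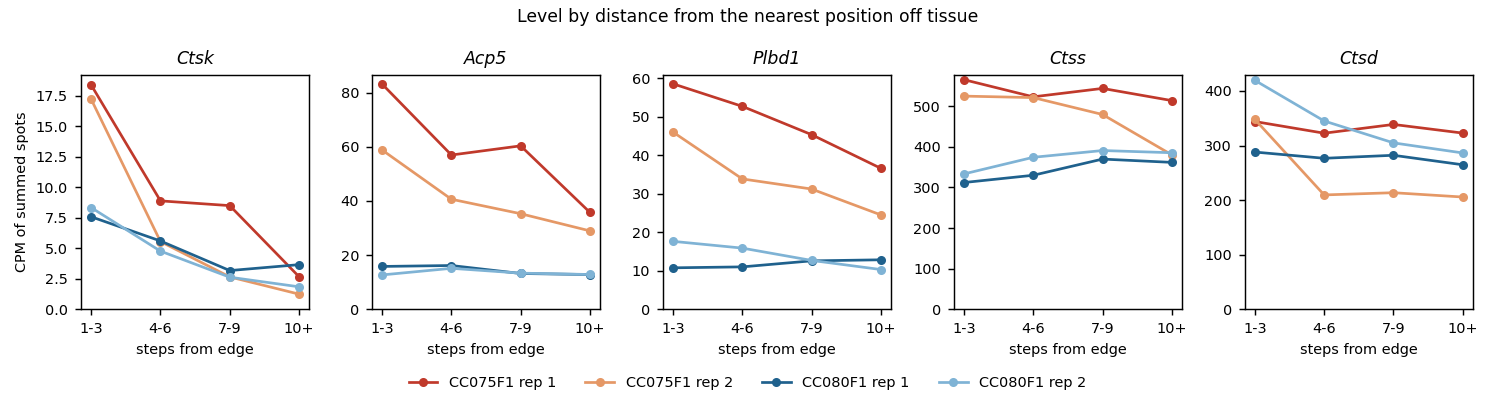
CPM of spots summed by distance from the closest off-tissue position (x axis, array steps in 4 bands; y axis, CPM from 0), 1 line per section and 1 panel per gene. Ctsk is highest in the outermost band in all 4 sections (18.4, 17.2, 7.58 and 8.33 CPM), and Acp5 is highest there in the CC075F1 sections (83.1 and 58.8 CPM).

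**Figure D5:**
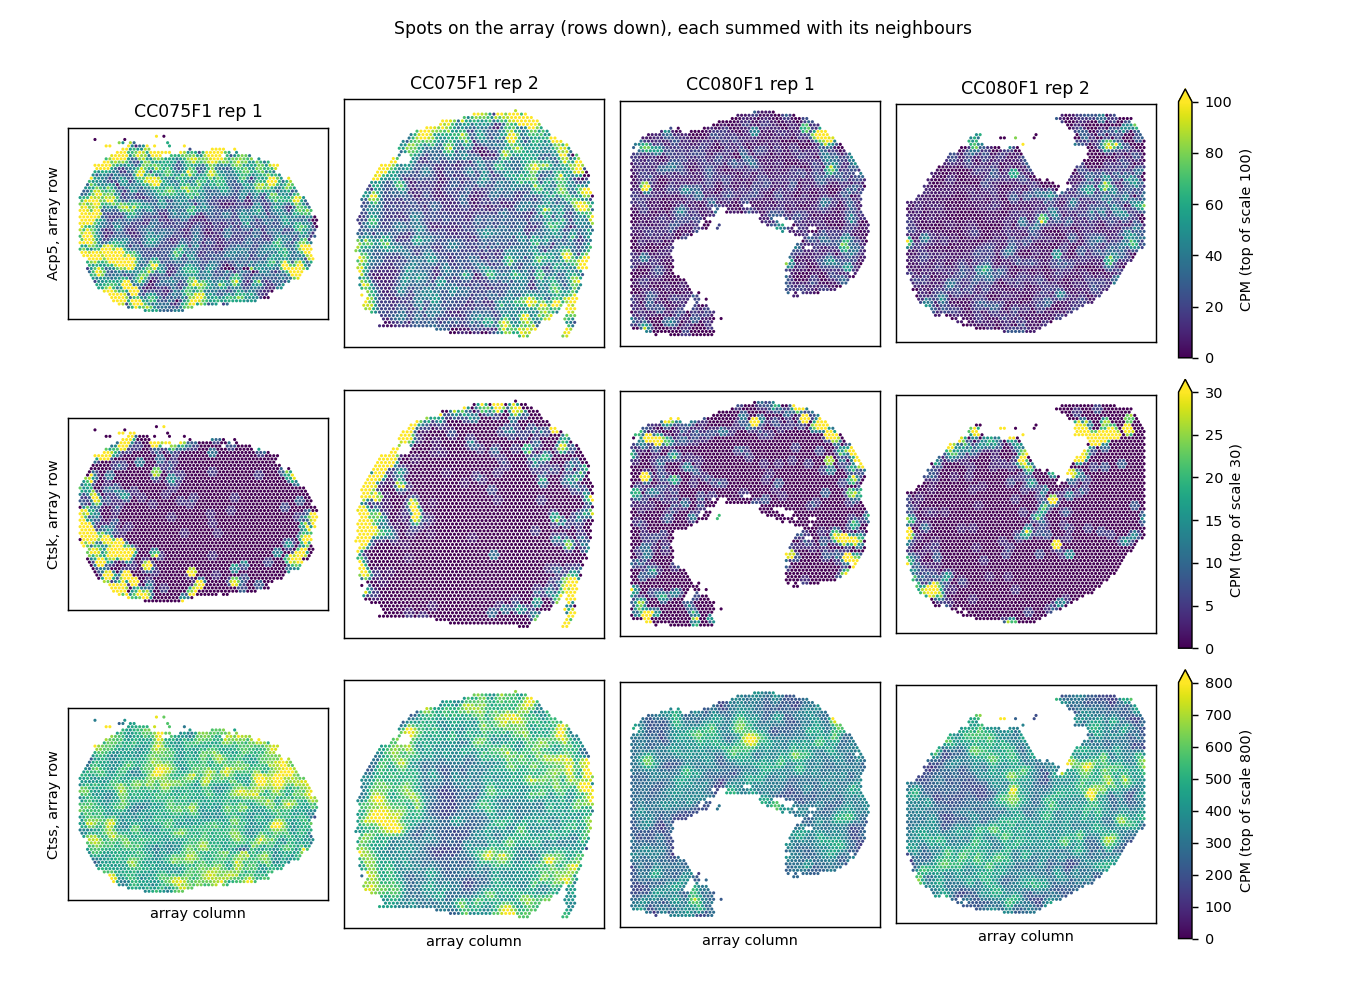
Maps of the 4 sections on the Visium array (x axis, array column; y axis, array row), each spot summed with its neighbours and coloured by CPM, for Acp5, Ctsk and Ctss (tops of the colour scales 100, 30 and 800 CPM). Ctsk gathers along margins, with 35.9 to 53.0% of its UMIs in edge spots, which held 13.0 to 29.0% of all UMIs. In the CC075F1 sections Acp5 is found inside as well but is denser at the edge. Edge spots there held 22.4 and 21.5% of its UMIs and 13.6 and 13.0% of all UMIs.

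Ctsk was counted in 290, 373, 318 and 277 spots, 10.7, 11.4, 11.4 and 8.73% of each section. Acp5 in spots with and without a Ctsk UMI measured 107 against 43.0 CPM, 56.9 against 33.4 CPM, 28.8 against 12.7 CPM and 23.4 against 12.3 CPM, ratios of 2.5, 1.7, 2.27 and 1.91. Plbd1 had ratios of 1.23, 1.67, 1.19 and 1.43 and Ctss of 1.02, 1.37, 1.0 and 1.1. Acp5 was thus higher in Ctsk-bearing spots of all 4 sections, and in each section its ratio exceeded those of Plbd1 and Ctss, in CC075F1 replicate 2 by little. Summed over a spot and its neighbours, r between Acp5 and Ctsk was 0.460, 0.390, 0.252 and 0.114. In interior spots alone, a setting chosen after seeing the data, where 3.1% of 13866 genes were higher and 0.671% lower, the Acp5 split still called Ctsk (12.2 against 1.59, 3.67 against 1.54, 6.83 against 3.20 and 4.50 against 1.64 CPM, log2 fold change 1.60, edgeR adjusted p = 1.84e-05). Ctsk (chromosome 3, 95499256 to 95509362, plus strand) lies 17423 bases before Ctss (95526786 to 95556403, plus strand), and these neighbouring genes differed in where they were found.

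Clustering in space was read from Moran's I, a measure of likeness between neighbouring spots, which ranged from 0.0451 to 0.446 over the 10 genes and 4 sections. Ctsk gave 0.245, 0.301, 0.0996 and 0.180 and was the highest of the 10 in CC075F1 replicate 1. Ctsc was highest in CC075F1 replicate 2 (0.446), and Ctsl in both CC080F1 sections (0.342 and 0.221). Acp5 gave 0.142, 0.116, 0.0701 and 0.0806 and Plbd1 0.0579, 0.0750, 0.0609 and 0.0893, so both were among the lower values. The measure was taken over single spots, in which both genes had medians of 1 UMI in CC075F1 and 0 in CC080F1. Counting error at such levels lowers it, so weaker clustering than that of the more abundant cathepsins is not read from it.

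Acp5 and Ctsk are markers of osteoclasts, so other osteoclast genes were read. Calcr, the calcitonin receptor, was at 0 in 3 sections, and Dcstamp and Oscar were under 1 CPM in each. Ocstamp, a membrane protein needed for fusion of osteoclast precursors, measured 1.33, 1.89, 0.267 and 0.666 CPM. Other genes of the list went the other way, and Nfatc1, Itgb3 and Tnfrsf11a were lower in both CC075F1 sections. Of 8 osteoclast genes tested between strains 3 had a positive log2 fold change, and the median was -0.26. In Acp5-high and Acp5-low spots Ocstamp stood at 2.62 against 0.667 CPM, 2.74 against 1.18 CPM, 0.380 against 0.233 CPM and 1.09 against 0.412 CPM (log2 fold change 1.34, edgeR adjusted p = 0.000431). Atp6v0d2, a V-ATPase subunit of osteoclasts and macrophages, was higher in Acp5-high spots by 1.196 (adjusted p = 0.00817) and is counted with the V-ATPase genes too. These 2 were the called genes among 8 osteoclast genes tested, and DESeq2 called 0 of the 8. The summed level of the list, 285, 75.7, 301 and 240 CPM, was mostly Mmp9.

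Other lysosomal genes were called in small numbers in the Acp5 and Plbd1 splits, where 3.24 and 3.54% of all genes were called higher. Membrane and sorting genes and further cathepsins lay above these shares in both splits, and hydrolases and V-ATPase genes nearer to them. Nothing is read from counts this small. In Acp5-high spots edgeR called 1 of 6 further cathepsins (Ctse, 0.47), 1 of 30 other hydrolases (Lgmn, the asparaginyl endopeptidase legumain, 0.10), 4 of 16 membrane and sorting genes (Psap 0.18, Laptm5 0.16, Npc2 0.09 and Grn 0.08), 1 of 17 V-ATPase genes (Atp6v0d2), 0 of 6 inhibitors (3 at an unadjusted p under 0.05) and 0 of 5 transcription regulators (0 at that level), all higher. In Plbd1-high spots the counts were 2 of 6 (Ctse 0.45 and Ctsw 0.43), 2 of 30 (Ppt1 0.21 and Fuca1 0.11), 3 of 16 (Laptm5 0.22, Psap 0.18 and Npc2 0.10), 0 of 17 (3 at an unadjusted p under 0.05), 1 of 6 (Cst3, cystatin C, 0.12) and 1 of 5 (Tfeb, 0.32, adjusted p = 0.0425). Of the further cathepsins, the hydrolases, the membrane and sorting genes and the V-ATPase genes, DESeq2 called 0, 1, 1 and 0 in the Acp5 split and 0, 1, 2 and 0 in the Plbd1 split. Median log2 fold changes of the 30 hydrolases were 0.03 and 0.01, beside -0.01 over all genes in both splits.

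Markers of several cell types moved with both genes. All 7 invariant chain and class II genes were higher in Acp5-high spots (Ciita, the class II transactivator, by 0.49 and H2-Eb1 by 0.39) and in Plbd1-high spots (Ciita by 0.72 and H2-Eb1 by 0.60). Their sum stood at 5067 against 4166 CPM, 3724 against 2540 CPM, 723 against 576 CPM and 978 against 763 CPM in Acp5-high and Acp5-low spots. Macrophage genes were called in 7 and 6 of 12 cases, fibroblast genes in 4 and 4 of 8 (Col1a2 by 0.58 and 0.72), T and NK cell genes in 4 and 4 of 7 and endothelial genes in 5 and 1 of 5, all higher, and 0 of 1 and 0 of 2 tested MC38 and epithelial genes were called. DESeq2 called 7 and 7 class II genes, 4 and 6 macrophage genes, 0 and 4 fibroblast genes, 1 and 3 T and NK cell genes and 1 and 0 endothelial genes in the 2 splits. The macrophage sum was 6757 against 6369, 5611 against 4531, 4250 against 3951 and 4521 against 4150 CPM across the Acp5 split. The sum of the 8 fibroblast genes did not move one way, at 1847 against 1924, 1378 against 982, 2903 against 2814 and 2598 against 2620 CPM. The part of these cell types in the cathepsin results was not tested.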

How the data were processed

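Visium libraries of 4 tumor sections were analysed from deposited UMI counts per gene and spot, raw and limited to spots under tissue, which the authors made with Space Ranger on the mm10 (GRCm38) reference; the deposited position lists gave array coordinates. Groups and replicate numbers came from the sample titles, and the section was the replicate. UMIs were summed per section, or per section and class of spots, and tested with edgeR 4.0.16 (R 4.3.3): TMM, filterByExpr, quasi-likelihood F test, Benjamini-Hochberg adjustment over all genes tested, threshold 0.05; spot contrasts had section as block. Strain contrasts had no covariate. An exact permutation test of 2 sections against 2 cannot go below p = 0.333. Library totals ran from 82594649 to 146460975 UMIs, and 1 spot without UMIs was left out. Sections are separate tumors, but 2 per strain leave the spread poorly known. Intervals are Clopper-Pearson at 95%. Correlations used log2(CPM + 1). Named genes are the 10 members, the 10 genes with the highest mean r with Acp5 and with Plbd1 among those of at least 20 CPM, and, of 19 further gene lists, genes called in a contrast, at most 4 a list. The members, lists and tests were chosen with earlier results of these data known. Alternatives were DESeq2 1.42.0, other scalings, filters, splits and markers, a replicate block and leaving out each section. Gene positions came from GENCODE vM21 and promoters from RefSeq, both on GRCm38. Scripts were tested on simulated data. There the strain fit made 13 false calls among 108, and called 15.3% of 2-fold and 81.6% of 4-fold changes. The fit of the Acp5 split made 10 false calls among 177, and called 72.7% of 1.25-fold and 96% of 2-fold changes.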

Additional observations from a re-analysis of the deposited data

Results flagged for a closer look

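The change of Ctsk between Plbd1-high and Plbd1-low spots had a called strain term, 0.92 on the log2 scale (larger in CC075F1, SE 0.162, edgeR interaction term, adjusted p = 0.0031). Ctsk was higher in Plbd1-high spots of all 4 sections, at 9.97 against 5.02 and 6.46 against 2.84 CPM in CC075F1 and at 5.32 against 5.12 and 3.92 against 3.33 CPM in CC080F1. The low spots held 5.05 and 2.12 CPM of Plbd1 in CC075F1 and 0 in CC080F1 (high spots 91.8, 64.1, 38.4 and 38.3 CPM), so the split itself differed between strains and the changes were not compared at a matched Plbd1 level. No other gene of the 10, apart from those used for a split, had a called interaction in the 6 spot contrasts. Col1a2 stood at 76.1 against 41.1, 235 against 113, 51.0 against 43.4 and 150.0 against 92.6 CPM in the same spots, and its part in the result was not tested. Outliers within strains could not be looked for with 2 sections each.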

How the results depend on the processing

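Between strains, where edgeR called 14 genes and 2 of the 10, DESeq2 called 194 genes, no filter 480 and 3 of the 10, library size scaling 40 genes and 0 of the 10, macrophage-high spots 6 genes and 1 of the 10, and leaving out a section 11 to 207 genes and 1 to 2 of the 10. The replicate numbers shared between strains cannot be shown to pair sections, since there are 2 pairs (correlation of deviations 0.449 over 6112 genes), and a replicate block called 287 genes and 3 of the 10, Acp5, Plbd1 and Ctsh.

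The macrophage split (393 genes, 6 of the 10) called 1810 genes and 8 of the 10 with C1q markers, 192 and 3 of the 10 with library size, 57 and 1 of the 10 without depth bins, 990 without filter, and 4 to 757 genes and 0 to 6 of the 10 without a section. The fibroblast split (813 genes, 1 of the 10) called 2 of the 10 with DESeq2, its size factors, a split at the median or no filter, 1315 genes and 4 of the 10 with Col1a1 and Col1a2 alone, and 0 to 1654 genes and 0 to 3 of the 10 without a section. The Cxcl9 split (2331 genes, 8 of the 10) called 356 to 3711 genes and 3 to 8 of the 10 without a section. The Acp5 split (557 genes, 5 of 9) called 175 with DESeq2, 120 without depth bins, 1024 without filter and 172 to 676 genes and 5 to 7 of 9 without a section, and the Plbd1 split (572 genes, 5 of 9) 250 with DESeq2, 1102 without filter and 233 to 1298 genes and 4 to 6 of 9 without a section. The edge contrast (125 genes, 1 of the 10) called 596 with DESeq2, 279 without spots of skin, muscle or fat, 683 without filter, 39 and 0 of the 10 with 5 steps, and 1 to 854 genes and 0 to 2 of the 10 without a section. Library size scaling raised the share of calls that were higher to 91.9% (otherwise 266 of 813) in the fibroblast split, 84.2% (1207 of 2331) in the Cxcl9 split and 92.9% (459 of 557) in the Acp5 split.

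Values that changed sign had not passed before. Between strains these were Ctsb (-0.111 with library size, -0.0251 without CC075F1 replicate 2) and Ctsl (-6.08e-05 and -0.147 in the same settings, 0.767 without CC075F1 replicate 1), and Ctsd with library size. In the fibroblast split these were Plbd1 (-0.000356 with DESeq2's size factors, -0.0555 with a split at the median, -0.00806 without filter, -0.0844 to 0.111 without a section), Acp5 (-0.184 without CC075F1 replicate 2, -0.0785 without CC080F1 replicate 1), Ctsc (0.0335 with library size, 0.27 with Col1a1 and Col1a2 alone, -0.114 to 0.0377 without a section) and Ctsz (0.0521 with library size, 0.0509 with Col1a1 and Col1a2 alone). Elsewhere they were Ctsb in the Cxcl9 split (-0.00176 without filter, -0.0211 to 0.0211 without a section), Ctsl in the Acp5 split (0.014 with library size), Ctsd in the Plbd1 split (0.0227 with library size, 0.00483 without depth bins, -0.0268 to 0.0204 without a section), and at the edge Ctss (0.0111 with library size), Ctsl (-0.00843 without filter, -0.0451 to 0.112 without a section) and Ctsc (-0.00448 without filter). The causes were not tested.

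The median r of the 8 cathepsins was 0.241 with Acp5 and 0.198 with Plbd1 after summing neighbours, 0.0465 and 0.0363 after thinning, and 0.0845 to 0.115 and 0.0644 to 0.0954 without a section. Shares of spots with at least 2 UMIs and after thinning were 40.0 and 33.0% (Acp5, CC075F1), 8.96 and 12.8% (Acp5, CC080F1), 36.2 and 31.1% (Plbd1, CC075F1) and 8.27 and 11.7% (Plbd1, CC080F1). With 2 sections per strain, modest strain differences of the cathepsins may go uncalled.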
